A study of Mus musculus with 12 samples.

Results

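The subunits of the NMDA receptor are encoded in the mouse by 7 genes, Grin1, Grin2a, Grin2b, Grin2c, Grin2d, Grin3a and Grin3b. They were chosen by symbol from the 24079 genes of a table of read counts, which held each of them once. RNA bound to HA-tagged ribosomes of the hippocampus was sequenced for 6 libraries of wild-type mice and 6 of Fmr1-/y mice. All mice carried Wfs1-CreERT2, a tamoxifen-inducible Cre under the promoter of Wfs1, and the RiboTag allele, which yields the ribosomal protein Rpl22 with an HA tag once Cre has acted, so that the tag marks CA1 pyramidal neurons. Wild-type mice were littermates with an intact Fmr1, and Fmr1-/y mice lack FMRP, the RNA-binding protein missing in fragile X syndrome. Mice of both genotypes were male C57BL/6J adults of 2 to 6 months that received tamoxifen at 100 mg/kg for 3 days and were used 1 week later. Each library was a pool of 4 to 6 mice, which gives the spread between pools and not between single animals. The comparison asked which NMDA receptor subunits differ in ribosome-bound RNA when FMRP is absent.

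NMDA receptors are glutamate-gated channels that admit calcium and set off synaptic plasticity in CA1 pyramidal neurons. Every receptor holds the GluN1 subunit (Grin1), which binds glycine or D-serine, together with GluN2 subunits (Grin2a to Grin2d), which bind glutamate and set the kinetics and magnesium block, or with glycine-binding GluN3 subunits (Grin3a, Grin3b). GluN2A and GluN2B prevail in adult hippocampal pyramidal neurons, while GluN2C is best known from cerebellar granule cells and is also found in astrocytes, and GluN2D in interneurons.

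Because reads of 50 bases were counted, the first question was whether reads of the 7 related genes could be told apart. The coding stretch around the motif of the third membrane segment (M3), the part of the subunits most alike in all glutamate receptors, is shown as an example. It is given for 4 of the genes, 1 or more of each subunit class, and the comparisons below cover whole transcripts. Each stretch has 69 bases and is written from 5′ to 3′ on the strand of the gene, and the 27 capitals mark the codons of the conserved motif (reference genome GRCm38, the same build as mm10, with GENCODE transcripts).
Grin1: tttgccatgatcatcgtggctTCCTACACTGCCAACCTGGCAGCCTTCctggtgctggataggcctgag
Grin2c: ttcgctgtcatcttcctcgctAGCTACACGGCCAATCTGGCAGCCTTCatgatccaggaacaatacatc
Grin3a: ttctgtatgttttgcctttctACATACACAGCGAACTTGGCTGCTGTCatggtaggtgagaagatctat
Grin3b: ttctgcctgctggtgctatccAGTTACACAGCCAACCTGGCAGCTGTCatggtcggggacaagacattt

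The stretches lie in exon 15 of 21 of Grin1 (chr2:25297178-25297246, minus strand) and exon 11 of 15 of Grin2c (chr11:115253728-115253796, minus strand). The stretches of Grin3a and Grin3b lie in exon 3 of 9 (chr4:49770449-49770517, minus strand, and chr10:79974615-79974683, plus strand). The stretches of the other Grin2 genes are not shown. No pair of the 7 genes shared a run of 50 bases in their transcripts, and the longest shared run, between Grin2b and Grin2c, had 34 bases. A full-length read without mismatches therefore matched a single subunit gene. Reads with up to 3 mismatches were also kept, and in 4 of the 21 pairs, all among the Grin2 genes, some windows of 50 bases differed by 3 mismatches or fewer. In the transcript with the longest coding sequence of each gene, these were 16 pairs of overlapping windows between Grin2b and Grin2c, 13 between Grin2c and Grin2d, 9 between Grin2a and Grin2b and 1 between Grin2a and Grin2c, with 2 mismatches at the fewest. The shortest of these transcripts of the Grin2 genes held 4846 such windows. Reads were counted by strand, and the antisense gene Grin1os, which overlaps Grin1, was counted apart from it.

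Between 39400980 and 65565479 reads per library were counted on genes. The wild-type libraries held 1971 to 2608 reads of Fmr1 each, against 1 read in all Fmr1-/y libraries together, as their labels say. The libraries differed in what they held beside neuronal mRNA. Rn45s, the precursor of ribosomal RNA, had 17848 to 40232 CPM (reads scaled to a common library size by TMM normalization) in wild-type, against 4356 to 39447 CPM in Fmr1-/y libraries, with the lowest value in Fmr1-/y library 1 and the highest Fmr1-/y value in library 6. The 8 astrocyte markers were all higher on average in Fmr1-/y libraries, 5 of them at an unadjusted p under 0.05, beside 4.29% of all genes tested. Their summed level was 888 to 1065 CPM in wild-type, against 1004 to 1466 CPM in Fmr1-/y libraries. The 4 choroid plexus markers and the 5 endothelial markers were also all higher on average, with median log2 fold changes of 0.40 and 0.37. The 8 CA1 markers were all lower on average, with a median log2 fold change of -0.10. Wfs1, whose promoter drives the Cre, was at 1272 ± 175 CPM in wild-type libraries and at 1055 ± 103 CPM in those of Fmr1-/y. Of 8 markers of CA2, CA3 and dentate granule neurons, 7 were lower (median -0.08), and of 8 interneuron markers 5 were (median -0.08). Of 7 oligodendrocyte markers 4 were lower (median -0.01), and of 6 microglia markers 2 were (median 0.01). Every gene of these lists had reads in every library. The paper found no tag in astrocytes, microglia and GABAergic cells. In the RNA of such a pull-down, cell number, RNA per cell and carry-over of RNA from untagged cells cannot be told apart. The lane of each library is not given in the sources used here.

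Of the 7 subunits, 3 had an unadjusted p under 0.05: Grin2a and Grin2b were lower in Fmr1-/y libraries and Grin2c was higher. None passed a Benjamini-Hochberg adjusted p of 0.05 over the 17823 genes tested, by the quasi-likelihood test of edgeR or by DESeq2. For background, edgeR called 0.0224% of all genes tested at an adjusted p under 0.05 and DESeq2 0.471%. At an unadjusted p under 0.05, 3.67% of all genes were lower and 4.29% higher in Fmr1-/y libraries. The 7 log2 fold changes had a median of -0.08, beside 0.004 over all genes tested. All 7 genes passed the filter of 15 reads over the 12 libraries, Grin3b with 20 reads, 17 of them in Fmr1-/y libraries. No subunit separated the genotypes in every library, whereas 0.41% of all genes had every Fmr1-/y library below every wild-type library and 0.213% had every one above.

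**Figure D1:**
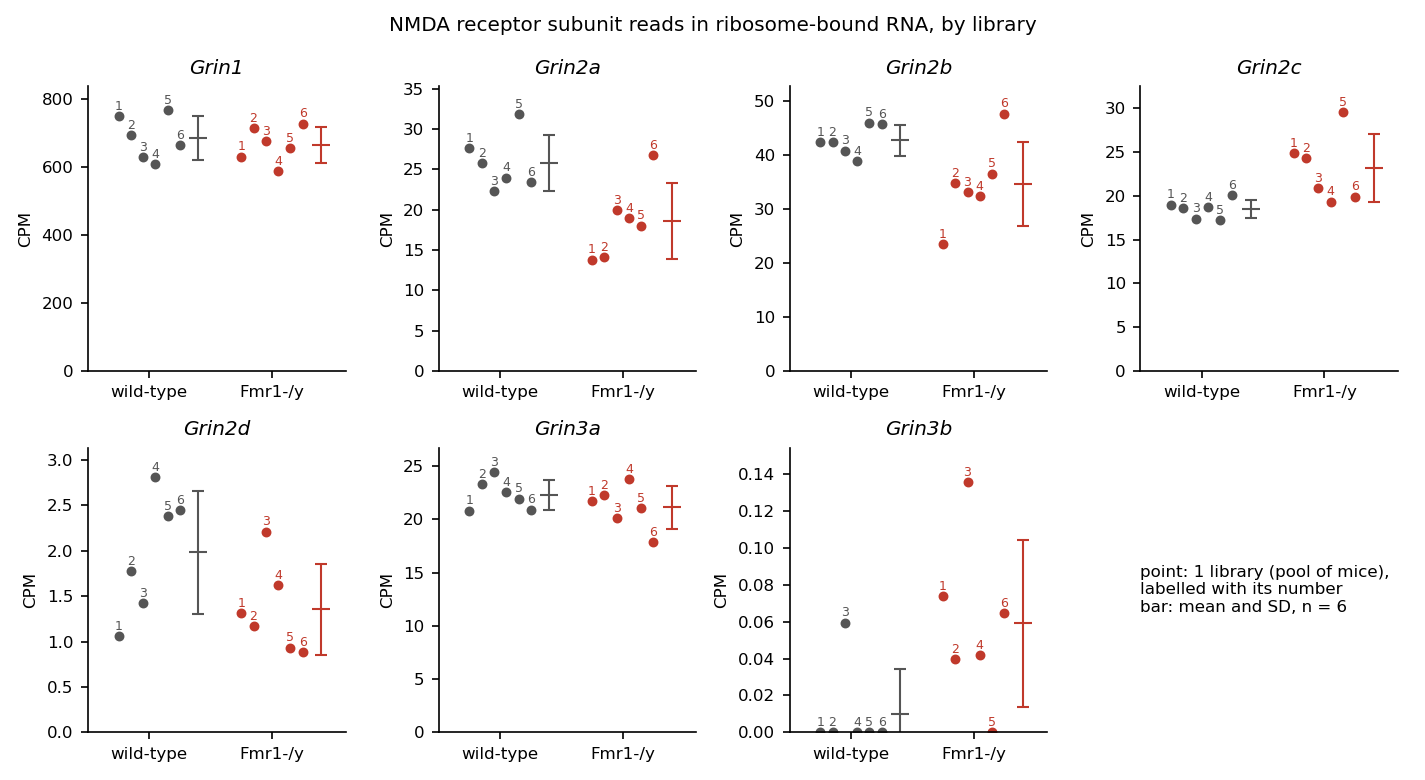
Level of each NMDA receptor subunit in every library, in TMM-normalised CPM on an axis from 0, for wild-type (grey) and Fmr1-/y (red). Points are libraries labelled with their number, and bars give the mean and SD of 6 libraries, drawn down to 0 at most. For Grin2a and Grin2b 5 of 6 Fmr1-/y points lie below every wild-type point and library 6 does not, and for Grin2c 4 of 6 lie above every wild-type point.

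Grin1 (Entrez 14810, chr2:25291177-25319187, minus strand), which encodes the obligatory subunit, was by far the most abundant of them and had close levels in both genotypes. In wild-type libraries it ranged from 609 CPM to 767 CPM with a median of 678 CPM. In Fmr1-/y libraries it ranged from 586 CPM to 727 CPM with a median of 666 CPM. The ranges lay nearly on each other, with 1 Fmr1-/y library below the lowest wild-type library and 2 wild-type libraries above the highest Fmr1-/y library. The log2 fold change was -0.04 ± 0.07 (SE), with a 95% interval from -0.19 to 0.11, so that Fmr1-/y levels between 87.6% and 107.6% of wild-type were compatible with these libraries (adjusted p = 0.94). Grin1os was at 21.3 ± 2.98 CPM in wild-type, against 22.2 ± 3.93 CPM in Fmr1-/y libraries (mean ± SD, n = 6 each).

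Grin2a (Entrez 14811, chr16:9567901-9996083, minus strand), which encodes the fast GluN2A subunit of mature synapses, had the smallest p of the 7. Its level in wild-type libraries ran from 22.3 CPM to 31.8 CPM with a median of 24.9 CPM. In Fmr1-/y libraries it ran from 13.8 CPM to 26.7 CPM with a median of 18.5 CPM. Libraries 1 to 5 of Fmr1-/y, at 13.8, 14.1, 19.9, 18.9 and 18.0 CPM, all lay below the lowest wild-type library, and library 6, at 26.7 CPM, lay inside the wild-type range. The log2 fold change was -0.47 ± 0.14 (SE), or 72.0% of wild-type with a 95% interval from 58.7% to 88.3%, and the unadjusted p of 0.0034 was the 180th smallest of all genes tested (adjusted p = 0.33 in edgeR and 0.094 in DESeq2). The spread over libraries was wider in Fmr1-/y, with an SD of 25.4% of the mean against 13.5% in wild-type.

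Grin2b (Entrez 14812, chr6:135713221-136173615, minus strand) encodes GluN2B, the subunit with slow kinetics that binds CaMKII. Wild-type libraries were close together, from 38.8 CPM to 46.0 CPM with a median of 42.4 CPM. Fmr1-/y libraries ran from 23.5 CPM to 47.7 CPM with a median of 34.0 CPM. As for Grin2a, libraries 1 to 5 of Fmr1-/y lay below the lowest wild-type library, but library 6 was the highest of all 12. The log2 fold change was -0.30 ± 0.12 (SE), or 81.2% of wild-type with a 95% interval from 68.3% to 96.6% (unadjusted p = 0.021, adjusted p = 0.51).

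Grin2c (Entrez 14813, chr11:115249169-115267297, minus strand), the gene of GluN2C, was higher in Fmr1-/y libraries. It ran from 17.2 CPM to 20.1 CPM with a median of 18.6 CPM in wild-type libraries. In Fmr1-/y libraries it ran from 19.3 CPM to 29.5 CPM with a median of 22.6 CPM. Libraries 1, 2, 3 and 5 of Fmr1-/y, at 24.9, 24.3, 20.9 and 29.5 CPM, lay above every wild-type library, and libraries 4 and 6 lay inside the top of the wild-type range. The log2 fold change was 0.32 ± 0.10 (SE), or 125.2% of wild-type with a 95% interval from 108.3% to 144.8% (unadjusted p = 0.0045, adjusted p = 0.36 in edgeR and 0.15 in DESeq2).

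Grin2d (Entrez 14814, chr7:45831883-45871194, minus strand), the gene of GluN2D, was scarce, with 41 to 114 reads per library. Its level ran from 1.06 CPM to 2.81 CPM with a median of 2.08 CPM in wild-type libraries and from 0.88 CPM to 2.21 CPM with a median of 1.24 CPM in Fmr1-/y libraries. The ranges overlapped over most of their length. The log2 fold change of -0.55 ± 0.27 (SE) had a 95% interval from -1.12 to 0.03 (unadjusted p = 0.062, adjusted p = 0.65), and this interval holds both no difference and a level of 45.9% of wild-type.

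Grin3a (Entrez 242443, chr4:49661611-49846023, minus strand), the gene of the glycine-binding GluN3A subunit that marks immature synapses, differed little. Wild-type libraries ran from 20.8 CPM to 24.4 CPM with a median of 22.3 CPM, and Fmr1-/y libraries from 17.9 CPM to 23.8 CPM with a median of 21.4 CPM. The log2 fold change was -0.08 ± 0.08 (SE), with a 95% interval from 84.3% to 106.4% of wild-type (adjusted p = 0.88). Grin3b (Entrez 170483, chr10:79970397-79977190, plus strand), the gene of GluN3B, known from motor neurons, was almost without reads. Fmr1-/y libraries 1 to 6 held 4, 2, 6, 2, 0 and 3 reads, and in wild-type all 3 reads came from library 3. The ratio of the summed read rates, Fmr1-/y to wild-type, was 4.97 with an exact 95% interval from 1.44 to 26.5, which covers counting error only, and edgeR's test over libraries gave an unadjusted p of 0.076 (adjusted p = 0.69). No fold change is given for it, since it would rest on the reads of a single wild-type library.

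**Figure D2:**
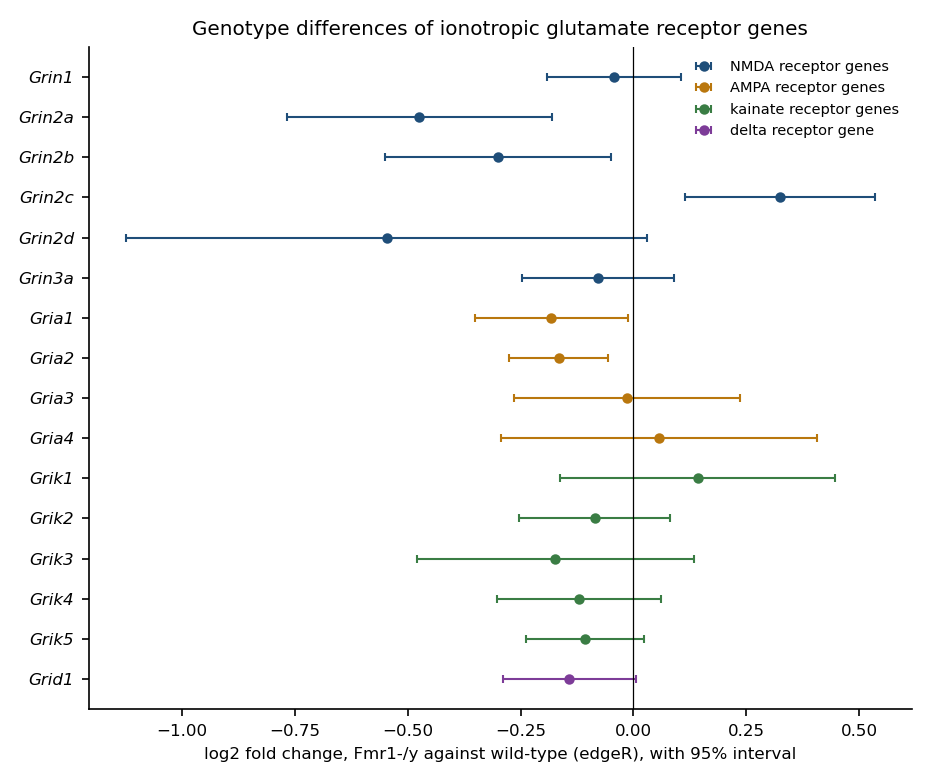
log2 fold change of Fmr1-/y against wild-type (x axis, edgeR, with 95% intervals) for 6 NMDA receptor subunit genes and for the AMPA and kainate receptor genes and Grid1. Grin3b is not drawn because of its few reads. The intervals of Grin2a and Grin2b lie below 0 and that of Grin2c above 0, and the intervals of Gria1 and Gria2 also lie below 0.

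The makeup of the Grin2 reads was described next, as shares of the reads of Grin2a to Grin2d in each library. Grin2b held 48.0 ± 1.56% of these reads in wild-type and 44.2 ± 4.36% in Fmr1-/y libraries (mean ± SD, n = 6 each), and Grin2a held 28.9 ± 2.51% and 23.7 ± 3.58%. Grin2c held 20.8 ± 1.62% in wild-type and 30.3 ± 6.53% in Fmr1-/y libraries. Its share was 17.7% to 22.2% in wild-type and 20.9% to 39.2% in Fmr1-/y libraries, so that the ranges met. The 4 Grin2 genes summed to 89.0 ± 5.50 CPM in wild-type, against 77.8 ± 11.0 CPM in Fmr1-/y libraries, and Grin1 held 86.0 ± 0.77% and 87.0 ± 0.98% of the reads of the 7 subunits. These shares are of reads, and longer transcripts give more of them.

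The ratio of Grin2a to Grin2b reads, which follows the exchange of these subunits as synapses mature, was 0.60 ± 0.066 in wild-type and 0.54 ± 0.076 in Fmr1-/y libraries (mean ± SD, n = 6 each). It ran from 0.51 to 0.69 in wild-type and from 0.41 to 0.60 in Fmr1-/y libraries, with the lowest value in Fmr1-/y library 2. The ranges overlapped, and the mean log2 ratios differed by -0.17 (two-sided exact permutation test of the genotype labels, p = 0.15, where the smallest p it can give is 0.0022). A difference in the balance of Grin2a and Grin2b was not detectable beyond the spread between libraries.

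Levels can be compared between genes only per length. Like the shares, they are levels of whole libraries, which also held reads of astrocyte markers. Per kilobase of the union of exons, wild-type libraries had 70.6 ± 6.60 CPM per kb of Grin1, 3.67 ± 0.21 of Grin2c, 1.82 ± 0.11 of Grin3a, 1.72 ± 0.11 of Grin2b, 1.44 ± 0.19 of Grin2a and 0.30 ± 0.10 of Grin2d. Grin3b had 0.0030 CPM per kb. The ranges over libraries of Grin3a and Grin2b overlapped, as did those of Grin2b and Grin2a, and the other neighbours in this order did not overlap. Fmr1-/y libraries had the same order, with 68.5 ± 5.43 CPM per kb of Grin1, 4.59 ± 0.77 of Grin2c and 1.04 ± 0.26 of Grin2a.

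This order depended on the length used. The exons of Grin2b span 24.8 kb, of which 4.45 kb are coding, while those of Grin2c span 5.04 kb, of which 3.72 kb are coding. Per kilobase of the longest transcript, the order stayed the same. Per kilobase of coding length, a choice added after the data were seen, Grin2b was second in wild-type libraries at 9.61 ± 0.63 CPM per kb, ahead of Grin3a at 6.56 ± 0.41, Grin2a at 5.88 ± 0.79 and Grin2c at 4.98 ± 0.29. Grin1, Grin2d and Grin3b kept their places under all 3 lengths. The lengths of the gene models on which the reads were counted were not used here, so that the places of the genes with long 3′ ends, Grin2a and Grin2b, are uncertain.

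**Figure D3:**
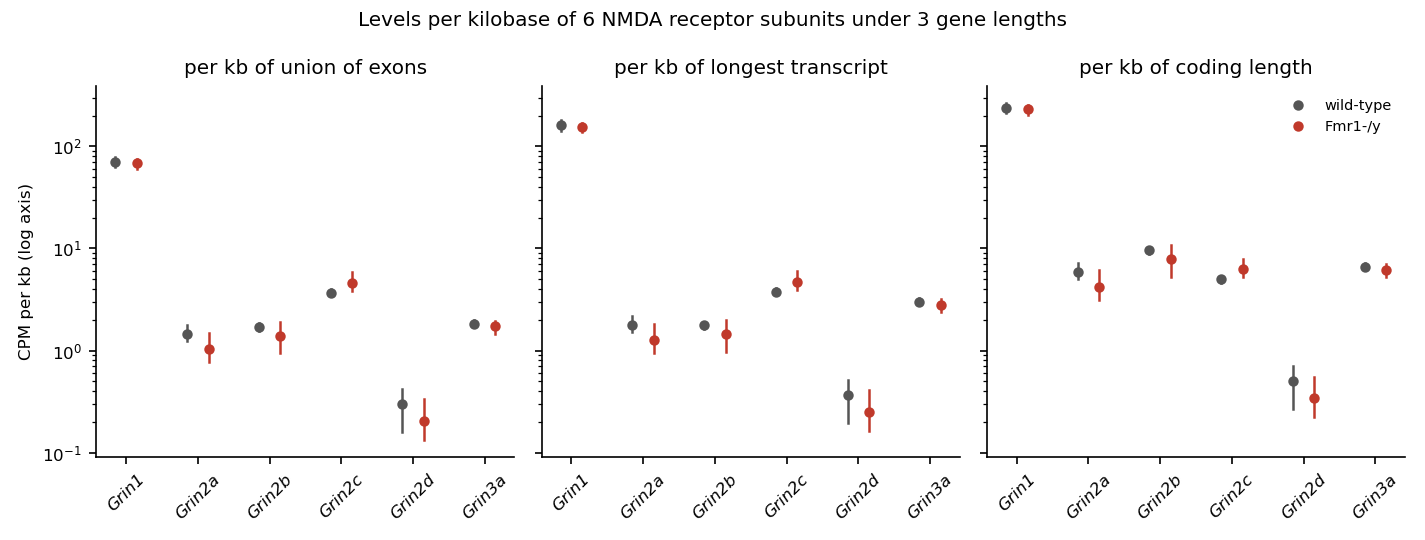
Level per kilobase of 6 NMDA receptor subunits (y axis, CPM per kb, log axis) in wild-type (grey) and Fmr1-/y libraries (red), per kb of the union of exons, of the longest transcript and of the coding length. Points are means of 6 libraries and lines run from the lowest to the highest library. Grin1 lies above and Grin2d below the others in each panel, and Grin2b stands ahead of Grin2c only per kb of coding length.

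The levels of Grin2a and Grin2b moved with 2 measures of library content, and the relations were computed over all 12 libraries and within each genotype. The log2 level of Rn45s was taken up after the data were seen, since the genes most like Grin2b included Lars2 and Mir6236, which had the same lowest and highest library as Rn45s in each genotype. Its relation with Grin2b is therefore a description with no test. Grin2b had r = 0.91 and rho = 0.78 with Rn45s over the 12 libraries, and r = 0.69 without the pair of libraries farthest from the median of Rn45s. Within the genotypes r was 0.69 in wild-type and 0.92 in Fmr1-/y libraries. Grin2a had r = 0.74 and rho = 0.57 with Rn45s, and r = 0.60 without the pair of farthest libraries. Within the genotypes its r was 0.29 in wild-type and 0.77 in Fmr1-/y libraries.

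Against the mean log2 level of the 8 astrocyte markers, Grin2a had r = -0.83 and Grin2b r = -0.84 (permutation p = 0.00078 and 0.0012, adjusted p = 0.0082 and 0.0083 over 21 pairs of a subunit and a marker list). Their rho values were -0.53 and -0.68 (adjusted p = 0.28 and 0.13). Without the pair of libraries farthest from the median, r fell to -0.55 for Grin2a and -0.62 for Grin2b (permutation p = 0.099 and 0.054), so that both relations rest on those libraries. Within Fmr1-/y libraries r was -0.78 for Grin2a and -0.79 for Grin2b (exact permutation p = 0.076 and 0.065), and within wild-type libraries -0.48 and -0.64 (exact permutation p = 0.36 and 0.17). Grin2c had r = 0.52 with the astrocyte markers (permutation p = 0.083, adjusted p = 0.34), and r = 0.18 without the pair of farthest libraries (permutation p = 0.50). Within the genotypes its r was 0.63 in wild-type and 0.11 in Fmr1-/y libraries (exact permutation p = 0.17 and 0.85).

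Grin1 followed the 8 CA1 markers, with r = 0.83 and rho = 0.87 (permutation p = 0.00039 and 0.00045, adjusted p = 0.0082 and 0.0094 over the same 21 pairs). Without the pair of farthest libraries r was 0.75 (permutation p = 0.013). Within the genotypes r was 0.97 in Fmr1-/y libraries (exact permutation p = 0.0014) and 0.78 in wild-type libraries, where it missed the threshold (exact permutation p = 0.054). None of the 7 subunits had an adjusted p under 0.05 with the 8 interneuron markers.

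**Figure D4:**
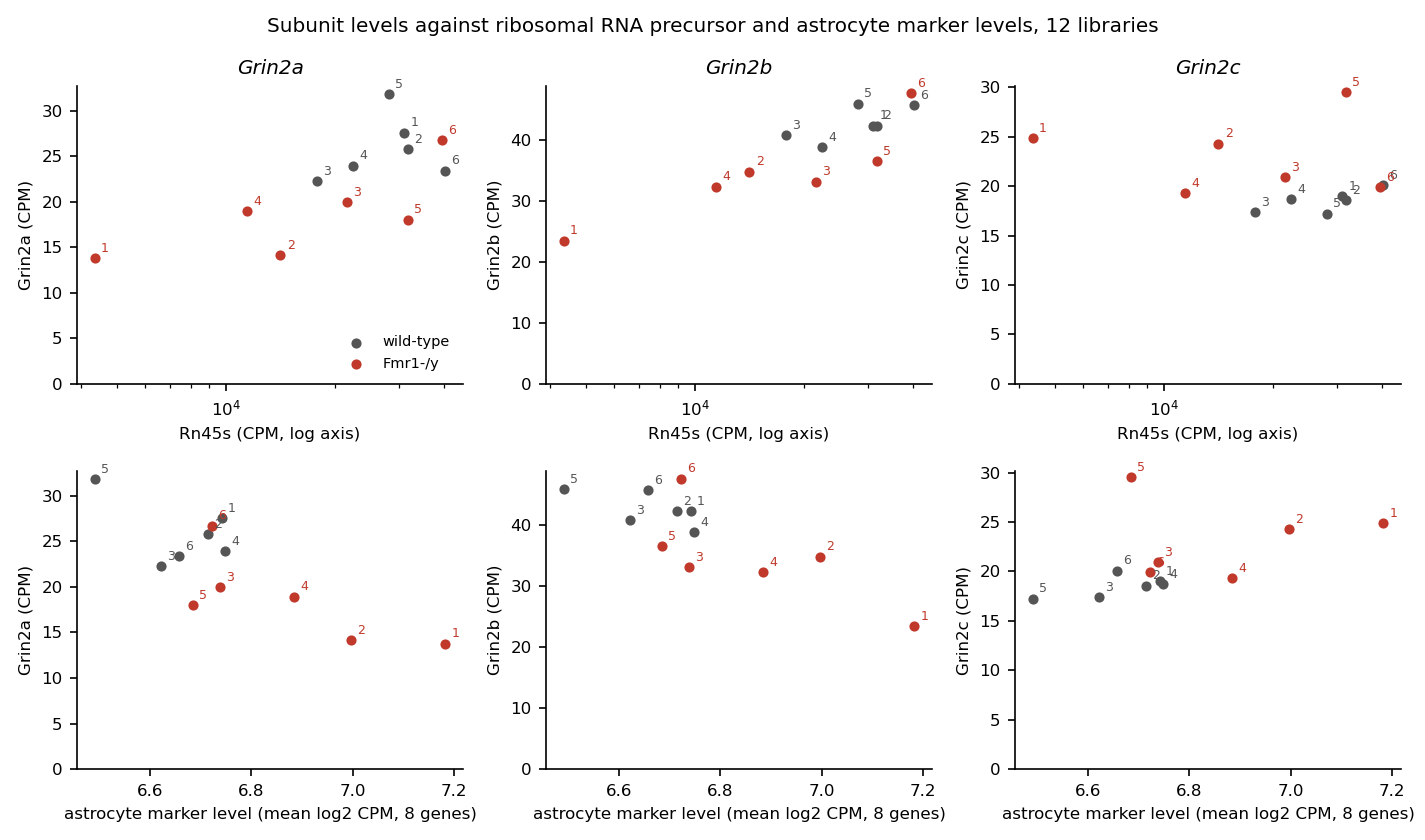
Level of Grin2a, Grin2b and Grin2c (y axes, CPM) against the level of Rn45s (top, CPM, log axis) and the mean log2 CPM of 8 astrocyte markers (bottom) in 6 wild-type (grey) and 6 Fmr1-/y libraries (red), labelled with the library number. Grin2b is lowest in Fmr1-/y library 1, at 23.5 CPM, which has the lowest Rn45s and the highest astrocyte marker level, and Grin2c is highest in Fmr1-/y library 5, at 29.5 CPM.

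Fits that held such a measure beside the genotype were chosen after the data were seen. With the astrocyte marker level in edgeR's fit, the log2 fold change of Grin2a was -0.21 (unadjusted p = 0.13), that of Grin2b was -0.07 (unadjusted p = 0.54) and that of Grin2c was 0.29 (unadjusted p = 0.030). With the level of Rn45s, Grin2a was at -0.32 (unadjusted p = 0.019), Grin2b at -0.13 (unadjusted p = 0.12) and Grin2c at 0.33 (unadjusted p = 0.0090). With the CA1 marker level, Grin2a was at -0.40 (unadjusted p = 0.019), Grin2b at -0.21 (unadjusted p = 0.10) and Grin2c at 0.36 (unadjusted p = 0.0054). The scarce Grin2d, at -0.55 without a covariate, was at -0.83 with the CA1 marker level (unadjusted p = 0.0074, adjusted p = 0.40). It was at -0.51 with the astrocyte marker level (unadjusted p = 0.17) and at -0.62 with Rn45s (unadjusted p = 0.069). The differences of Grin2a and Grin2b were less than those reported without a covariate in each of the 3 fits. Rn45s was picked through genes most like Grin2b, and the astrocyte marker level was already known to move with both genes. The smaller differences are therefore a description and not a test. The difference of Grin2c was close to the one without a covariate, and the cause was not tested. The mean astrocyte marker level was 6.66 log2 CPM in wild-type and 6.87 log2 CPM in Fmr1-/y libraries, and the mean CA1 marker level was 8.40 and 8.28 log2 CPM. Rn45s had 28561 ± 7818 CPM and 20460.5 ± 13198 CPM (unadjusted p = 0.19 in edgeR). The ranges of each of these measures overlapped between the genotypes.

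Single libraries mattered for the size of the differences. Without Fmr1-/y library 6, the log2 fold change was -0.61 for Grin2a and -0.41 for Grin2b, and without Fmr1-/y library 1 it was -0.40 and -0.21. Grin2a, Grin2b and Grin2c each kept an unadjusted p under 0.05 with any single library left out, and none reached an adjusted p of 0.05.

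The other ionotropic glutamate receptor genes were compared by the same fit. Of the 4 AMPA receptor genes, which carry fast excitatory transmission, 3 were lower on average in Fmr1-/y libraries. At an unadjusted p under 0.05, 2 of them were lower, beside 3.67% of all genes tested. Gria1 had 1497 ± 114 CPM in wild-type, against 1320 ± 168 CPM in Fmr1-/y libraries, a log2 fold change of -0.18 ± 0.08 (SE). Gria2 had 704 ± 27.2 and 628 ± 29.9 CPM, a log2 fold change of -0.17 ± 0.05 (SE), and both had adjusted p-values over 0.05 (0.59 and 0.38). Gria3 and Gria4 had log2 fold changes of -0.01 and 0.06. With the CA1 marker level in the fit, the log2 fold change was -0.06 for Gria1 (unadjusted p = 0.26) and -0.13 for Gria2 (unadjusted p = 0.015). With the astrocyte marker level it was -0.20 and -0.11 (unadjusted p = 0.063 and 0.086).

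Among the 5 kainate receptor genes, 4 were lower on average and none had an unadjusted p under 0.05. Their log2 fold changes were 0.14 for Grik1, -0.09 for Grik2, -0.17 for Grik3, -0.12 for Grik4 and -0.11 for Grik5. The delta receptor gene Grid1 had a log2 fold change of -0.14 and an adjusted p of 0.64. Per kilobase of the union of exons, the NMDA receptor genes made up 16.9 ± 0.88% of the summed level of the ionotropic receptor genes in wild-type and 18.0 ± 0.46% in Fmr1-/y libraries, and the AMPA receptor genes made up 72.2 ± 1.01% and 70.9 ± 0.68%.

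Proteins that supply, anchor, modify or follow the NMDA receptor were taken as a list of 74 genes, of which 73 were tested and Slc6a5, the neuronal glycine transporter of the hindbrain, had 2 reads in all. On average 46 were lower and 27 higher in Fmr1-/y libraries, with a median log2 fold change of -0.04, beside 8670 lower and 9153 higher of all 17823 genes tested. At an unadjusted p under 0.05, 5 were lower (6.85%) and 4 higher (5.48%), beside 3.67% and 4.29% of all genes tested. With the astrocyte marker level in the fit 3 of the genes had an unadjusted p under 0.05, with Rn45s 4 did and with the CA1 marker level 9 did. These were not the same genes in each fit. The share of all genes at that level was not computed for these fits, so the counts have no background. Without a covariate, none of the listed genes passed an adjusted p of 0.05 by edgeR, and by DESeq2 Slc7a10 alone did. Of all genes tested, 0.0224% passed by edgeR and 0.471% by DESeq2.

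Of the 13 tested genes that make or move the co-agonists glycine and serine, 9 were higher on average and 4 lower. Slc7a10, the transporter that carries D-serine and glycine across the membrane, was at 27.5 ± 2.03 CPM in wild-type, against 37.3 ± 7.96 CPM in Fmr1-/y libraries (log2 fold change 0.44 ± 0.11 SE, adjusted p = 0.25 in edgeR and 0.039 in DESeq2). Every Fmr1-/y library lay above every wild-type library for Slc7a10, as for 0.213% of all genes tested. Phgdh, the first enzyme of serine synthesis, was at 56.5 ± 6.73 and 73.2 ± 15.3 CPM (log2 fold change 0.37 ± 0.12 SE, adjusted p = 0.38). Both genes are known as astrocyte genes in the brain. With the astrocyte marker level in the fit the log2 fold change was 0.17 for Slc7a10 (unadjusted p = 0.077) and 0.10 for Phgdh (unadjusted p = 0.33). Srr, the serine racemase that makes D-serine, had a log2 fold change of -0.05.

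Among the 12 genes that act downstream of the receptor, 10 were lower on average, 3 of them at an unadjusted p under 0.05, beside 3.67% of all genes tested. Rasgrf1, a calcium-dependent Ras activator, was at 783 ± 77.4 and 651 ± 119 CPM (log2 fold change -0.27 ± 0.10 SE, adjusted p = 0.50). Nos1, the neuronal nitric oxide synthase that PSD-95 tethers to the receptor, was at 16.0 ± 3.26 and 12.3 ± 2.64 CPM (log2 fold change -0.38 ± 0.15 SE, adjusted p = 0.52). With the CA1 marker level in the fit, the log2 fold change was -0.27 for Rasgrf1 (unadjusted p = 0.029) and -0.58 for Nos1 (unadjusted p = 0.00094), and with the astrocyte marker level it was -0.13 and -0.35 (unadjusted p = 0.28 and 0.092).

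Of the 14 anchoring genes, 6 were lower and 8 higher on average. Dlg4, which encodes PSD-95, had a log2 fold change of -0.16 (adjusted p = 0.62) and Actn4, an actin-binding protein, of 0.17 (adjusted p = 0.62). Of the 23 kinases and phosphatases, 17 were lower on average, with Prkca, a protein kinase C, at a log2 fold change of -0.17 (adjusted p = 0.54). Camk2a, the kinase that binds GluN2B, had a log2 fold change of -0.09 and an interval that includes 0. Among the 11 genes of transport and assembly, 9 were lower, and Hspa5, a chaperone of the endoplasmic reticulum, was higher with a log2 fold change of 0.21 (adjusted p = 0.42).

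**Figure D5:**
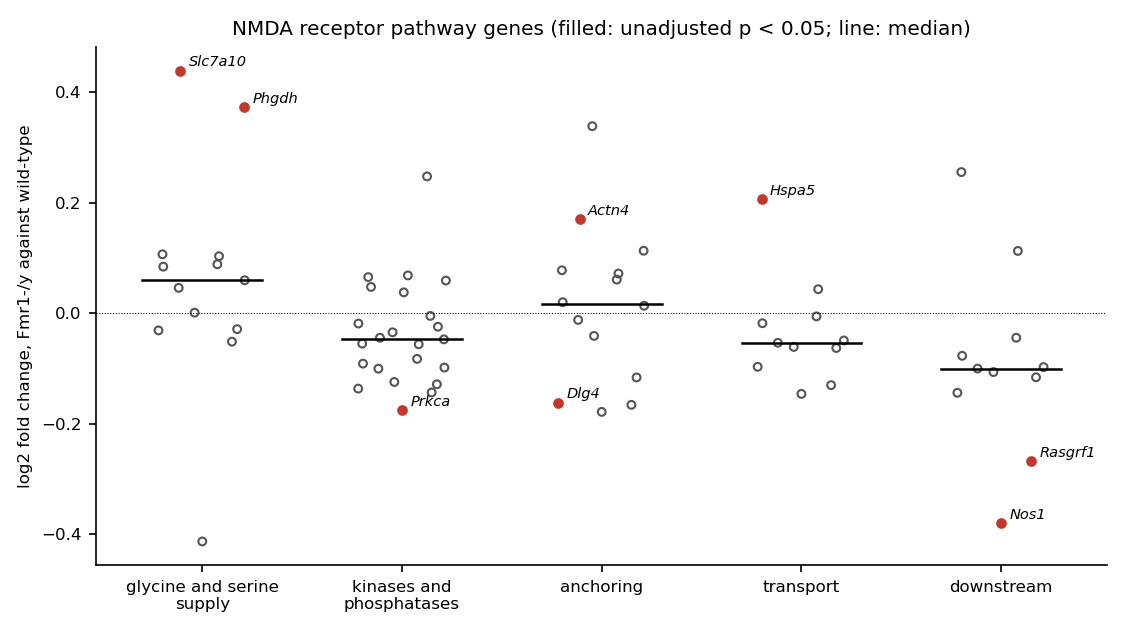
log2 fold change of Fmr1-/y against wild-type (y axis, edgeR) of genes of 5 lists around the NMDA receptor (x axis). Points are genes, filled and named where the unadjusted p was under 0.05, and lines are medians of the points drawn. Slc7a10 and Phgdh are highest in the glycine and serine list, and Nos1 and Rasgrf1 lowest in the downstream list.

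The genes whose levels followed each subunit most closely over the 12 libraries, after the genotype means were taken out, were searched among 13768 genes with at least 1 CPM on average. These values describe likeness only, and all genes share the libraries. Grin1 was followed by Fry (r = 0.98), Acap3 (r = 0.95) and Ap2b1 (r = 0.94). The nearest to Grin2a were Cdh6 (r = 0.92), Igsf9b (r = 0.90) and Dlgap2 (r = 0.88), and the nearest to Grin2b were Lars2 (r = 0.94), Mob2 (r = 0.93) and Mir6236 (r = 0.92). Grin2c was followed by Aim2 (r = 0.97), Prpsap1 (r = 0.94) and Gps2 (r = 0.93). For Grin2d they were Rsad1 (r = 0.88), 4930444P10Rik (r = 0.86) and 4930563E22Rik (r = 0.86), and for Grin3a Rps6ka5 (r = 0.90), Trim26 (r = 0.85) and AU023762 (r = 0.85). Some of these values hung on the pair of libraries farthest from the median of the matched gene. Without that pair, r was 0.52 for AU023762, 0.72 for Rps6ka5, 0.75 for Lars2 and 0.71 for Mir6236, while it stayed at 0.98 for Fry. Among the subunits themselves, Grin2a and Grin2b were the most alike (r = 0.74). Grin3a moved opposite to Grin2a (r = -0.63), Grin1 (r = -0.60) and Grin2b (r = -0.59). Grin2c moved opposite to Grin3b (r = -0.59), which has few reads.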

How the data were processed

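Ribosome-bound polyadenylated RNA of 12 pools was sequenced in stranded libraries. The authors aligned reads with TopHat2 2.1.1 and Bowtie2 2.2.8 to mm10 with UCSC gene models, and counted them with HTSeq 0.6.1p1 in union mode by strand; the deposited counts are not normalized. Reads shared by genes were left out in that mode. Libraries were grouped by their labels, and nothing pairs wild-type with Fmr1-/y pools. Genes with at least 15 reads in all were tested with edgeR 4.0.16 (TMM, quasi-likelihood test, no block) in R 4.3.3, and p-values were adjusted over all of them by Benjamini-Hochberg (threshold 0.05). DESeq2 1.42.0, limma 3.58.1 voom, other filters and scalings, a block and left-out libraries were alternatives. Log2 CPM used a prior count of 2. The script was tested on simulated counts. Gene lengths and sequences came from GENCODE, gene coordinates from RefSeq, both GRCm38. All 7 subunits are named, the 3 genes most like each, AMPA, kainate and delta receptor genes, and pathway genes at an unadjusted p under 0.05, of which some, and some sequences, are not reported here; Srr, Camk2a, Slc6a5, Grin1os and Rn45s were named after their values were seen. Members and lists were chosen with earlier results of these data known.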

Additional observations from a re-analysis of the deposited data

Results flagged for a closer look

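The levels of the 7 subunits, the ratio of Grin2a to Grin2b and Rn45s were searched for a library far from the others of its genotype, by the gap to the nearest library divided by the range of the group (18 groups of 6 libraries, of which chance flags about 1 in 20). A single group passed Dixon's 95% limit. Wild-type library 3 held all 3 wild-type reads of Grin3b, at 0.059 CPM, while the other wild-type libraries held 0 reads, so that its gap was the whole range (1.0). With the others at 0, any read in that library would give this value, and the rate of 1 in 20 does not hold for it.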

How the results depend on the processing

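The 7 log2 fold changes were recomputed in 144 planned combinations of a subunit and an alternative, and all kept their direction and none passed an adjusted p of 0.05 (DESeq2 gave none for Grin3b). Grin3b could not be fitted in 3 further ones, for lack of reads. Grin2a ranged from -0.61 to -0.40, Grin2b from -0.41 to -0.21 and Grin2c from 0.24 to 0.37, each with an unadjusted p under 0.05 in all 21. Grin1 turned to 0.0078 with the astrocyte marker level, 0.058 with the CA1 marker level and 0.0076 with Rn45s as a covariate, all chosen after the data were seen. Subunits at an unadjusted p under 0.05 numbered 3 to 5 with a library left out (5 without wild-type replicate 3, with Grin2d and Grin3b), and 1 with the astrocyte covariate, beside 3. Pathway genes at that level numbered 9, and 4 to 11 with a library left out (4 without wild-type replicate 5). They numbered 3 with the astrocyte covariate and 4 with Rn45s. The share of all genes at that level was not computed in these alternatives. Past the adjusted threshold 1 pathway gene passed in DESeq2 and 0 in edgeR. All genes past it numbered 4, 84 in DESeq2, 1 with a filter of 10 reads in every library, 2 with the astrocyte or the CA1 covariate, and 2 to 6 with a library left out (2 without wild-type replicate 4, 5 or 6 or Fmr1-/y replicate 1, 4, 5 or 6). The cause was not tested. The Grin2a to Grin2b log2 ratio differed by -0.22 to -0.093 with a library left out. Per kb of coding length 3 subunits changed place in the order. Same-numbered libraries had correlated deviations of r from -0.081 to 0.090 over all genes and from -0.24 to 0.35 over expressed genes, not above 0.1 in every pair, so they were not taken as paired; with a replicate block Grin2a was at -0.50, Grin2b at -0.33 and Grin2c at 0.31, and no call changed. Counting limits Grin2d (41 to 114 reads per library) and Grin3b (0 to 6).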
